A study of Mus musculus with 461 samples.

Results

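The 8 chemokine genes Ccl2, Ccl7, Ccl8, Cxcl1, Cxcl5, Cxcl10, Cxcl12 and Cx3cl1 were followed through reprogramming of mouse embryonic fibroblasts (MEFs) in single cells. They were chosen by symbol, with earlier results of these data known, and all 8 were among the 31673 genes measured. The series holds 461 single cells captured on a Fluidigm C1 instrument at days 1, 3, 4, 5 and 7 of 7F reprogramming, set against day 0. All cells came from OG2 transgenic MEFs, whose transgene reports activity of the Oct4 locus, of mixed 129SVJ, C57B6 and CBA background; the number and age of the animals are not stated. Reprogramming cells were kept in iCD1 medium and MEFs in serum medium, so 7F, medium and time cannot be told apart in any comparison with day 0. The labels do not name the 7 factors.

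A replicate here was a set, meaning all cells with the same day and the same title prefix (b1, b2 or b3), whose meaning the labels do not give. The b1 sets held 61 cells at day 3 and 20 at day 0. The b2 sets held 58 cells at day 1, 58 at day 3, 79 at day 5, 65 at day 7 and 54 at day 0. Day 4 consisted of 59 cells of b3, so for day 4 the day and the prefix cannot be told apart. Another 5 cells of b1 at day 5 and 2 of b1 at day 7 were too few for the fit; values for days 5 and 7 are those of b2 unless b1 is named. Cells had 0.319 to 7.00 M counts (mega-counts), with a median of 2.50 M. At day 0, 24 of the 54 b2 cells had fewer than 7500 genes with a count, against 2 of the 20 b1 cells. At day 0 the 10 fibroblast markers summed to 3429 and 3608 counts scaled to sequencing depth (CPM) in the b1 and b2 sets. Most of this was Col1a1 (1315 and 1071 CPM) and Col1a2 (1105 and 1203 CPM). Other markers were low in 1 or both sets: Lum at 3.47 and 0.01985 CPM, Dcn at 20.5 and 0.853 CPM, and Thy1 at 3.16 and 22.4 CPM. Of 12 leukocyte markers 6 (b1) and 5 (b2) had counts at day 0, among them Cd14 (7.01 and 4.87 CPM), Csf1r (2.89 and 2.59 CPM), Cd79a (4.10 and 1.54 CPM) and Cd68 (0.539 and 5.37 CPM), whereas Ptprc, Adgre1, Aif1, Tyrobp, Fcer1g and Cd3e were at 0 in both day 0 sets.

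Chemokines are small secreted proteins that bind receptors on white blood cells and direct their migration. Fibroblasts make many of them: the inflammatory ones are switched on by signals such as interleukin 1, tumour necrosis factor, interferons and serum, largely through NF-kB, AP-1 and interferon-regulated factors, whereas Cxcl12 is made constitutively by stromal cells. Of the 8, Ccl2, Ccl7 and Ccl8 belong to the CC family, with Ccl2 and Ccl7 attracting monocytes. Cxcl1 and Cxcl5 attract neutrophils through Cxcr2. Cxcl10 is an interferon-induced ligand of Cxcr3, Cxcl12 retains haematopoietic progenitors through Cxcr4, and Cx3cl1 is a membrane-tethered ligand of Cx3cr1.

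The table of RefSeq promoters (GRCm38.p6) held 5 of the 8 genes. The 240 bases that end 11 bases before the transcription start are printed for the genes with the clearest inducible and constitutive control and for the gene that appeared during reprogramming, so that the letters can be read beside the values. Capitals mark matches to 3 motifs, searched on both strands in the 250 bases before the start: NF-kB as GGGNNNTTCC, AP-1 as TGANTCA and the interferon-stimulated response element as GAAANNGAAA.
Cxcl1, chr5:90890995-90891234, plus strand: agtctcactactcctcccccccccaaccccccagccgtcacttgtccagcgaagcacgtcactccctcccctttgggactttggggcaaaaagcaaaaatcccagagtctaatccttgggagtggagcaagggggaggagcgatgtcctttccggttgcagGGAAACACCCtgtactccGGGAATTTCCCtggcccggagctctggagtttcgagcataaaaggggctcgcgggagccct
Cxcl10, chr5:92348900-92349139, minus strand: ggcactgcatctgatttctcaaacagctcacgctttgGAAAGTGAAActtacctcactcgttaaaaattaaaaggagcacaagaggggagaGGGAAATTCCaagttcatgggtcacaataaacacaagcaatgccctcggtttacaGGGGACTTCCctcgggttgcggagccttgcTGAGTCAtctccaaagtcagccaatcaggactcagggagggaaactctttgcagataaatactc
Cxcl12, chr6:117168285-117168524, plus strand: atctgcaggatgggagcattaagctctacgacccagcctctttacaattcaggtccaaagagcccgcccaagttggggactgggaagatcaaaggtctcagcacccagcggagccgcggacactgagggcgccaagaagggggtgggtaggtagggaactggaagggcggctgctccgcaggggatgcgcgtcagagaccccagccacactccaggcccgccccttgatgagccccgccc
Ccl8, chr11:82114935-82115174, plus strand: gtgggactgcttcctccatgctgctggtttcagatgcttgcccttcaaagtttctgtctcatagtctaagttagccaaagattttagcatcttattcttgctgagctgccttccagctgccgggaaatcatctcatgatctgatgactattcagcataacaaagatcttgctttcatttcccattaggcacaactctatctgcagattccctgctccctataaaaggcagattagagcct
Cxcl1 held NF-kB matches starting 89 and 71 bases before the start, and the match at 71 bases, being nearly its own reverse complement, was also found 1 base further on the other strand. Cxcl10 held NF-kB matches starting at 159 bases and nearer to the start, an AP-1 match at 74 bases and an interferon element at 213 bases, none of them overlapping. These letters were not in the windows of Cxcl12, Ccl8 or Cx3cl1. Over all 32851 promoters, 4.65% held the NF-kB motif, 6.75% the AP-1 motif and 2.98% the interferon element. A match is only a match of letters.

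On each later day 4 or 5 of the 8 chemokine genes were called lower than at day 0. For 4 genes even the direction at day 3 differed between the prefixes. Counted over 22378 tested genes, which include all 8, 4 chemokine genes were lower and 0 higher at day 1 (edgeR quasi-likelihood test, Benjamini-Hochberg adjusted p under 0.05), where 0.25% of all genes were called lower and 0.934% higher, 1.18% in all. At day 3, 4 were lower and 1 higher, with 1.04% of all genes lower and 2.1% higher, 3.14% in all. At day 4, 4 were lower and 1 higher, with 0.965% lower and 2.07% higher, 3.03% in all. At day 5, 4 were lower and 0 higher, with 2.18% lower and 2.56% higher, 4.73% in all. At day 7, 5 were lower and 0 higher, with 3.05% lower and 3.55% higher, 6.6% in all. Ccl2, Ccl7, Cxcl10 and Cxcl12 were called lower on all 5 days; Cxcl1 was called at day 7, Ccl8 was called higher at days 3 and 4, and Cxcl5 and Cx3cl1 were not called on any day. The median log2 change of the 8 was -4.58 at day 1, -3.30 at day 3, -3.46 at day 4, -4.002 at day 5 and -5.75 at day 7, whether genes without counts on 1 side entered at their fitted value or at their bound; over all genes the medians were 0, 0.114, 0, 0 and 0. These 5 comparisons share the day 0 sets and are not independent of each other. As the 8 genes were chosen with earlier results of these data known, their counts beside the shares of all genes are descriptions. At day 3 Ccl2, Cxcl5 and Cxcl12 were lower than at day 0 in both prefixes and Ccl8 was higher in both. Ccl7, Cxcl1, Cxcl10 and Cx3cl1 were higher in b1 and lower in b2, but had only 43, 45, 0 and 5 counts in b1 at day 0. With all 10 sums in the fit, the 7 b1 cells of days 5 and 7 included, Ccl2 was lower at days 5 and 7 and Ccl8 higher at day 5, and no other gene of the 8 was called on any day (4, 3 and 4 genes at an unadjusted p under 0.05 at days 1, 3 and 4). With limma on TPM none was called on any day (1, 2, 2, 2 and 2 unadjusted).

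**Figure D1:**
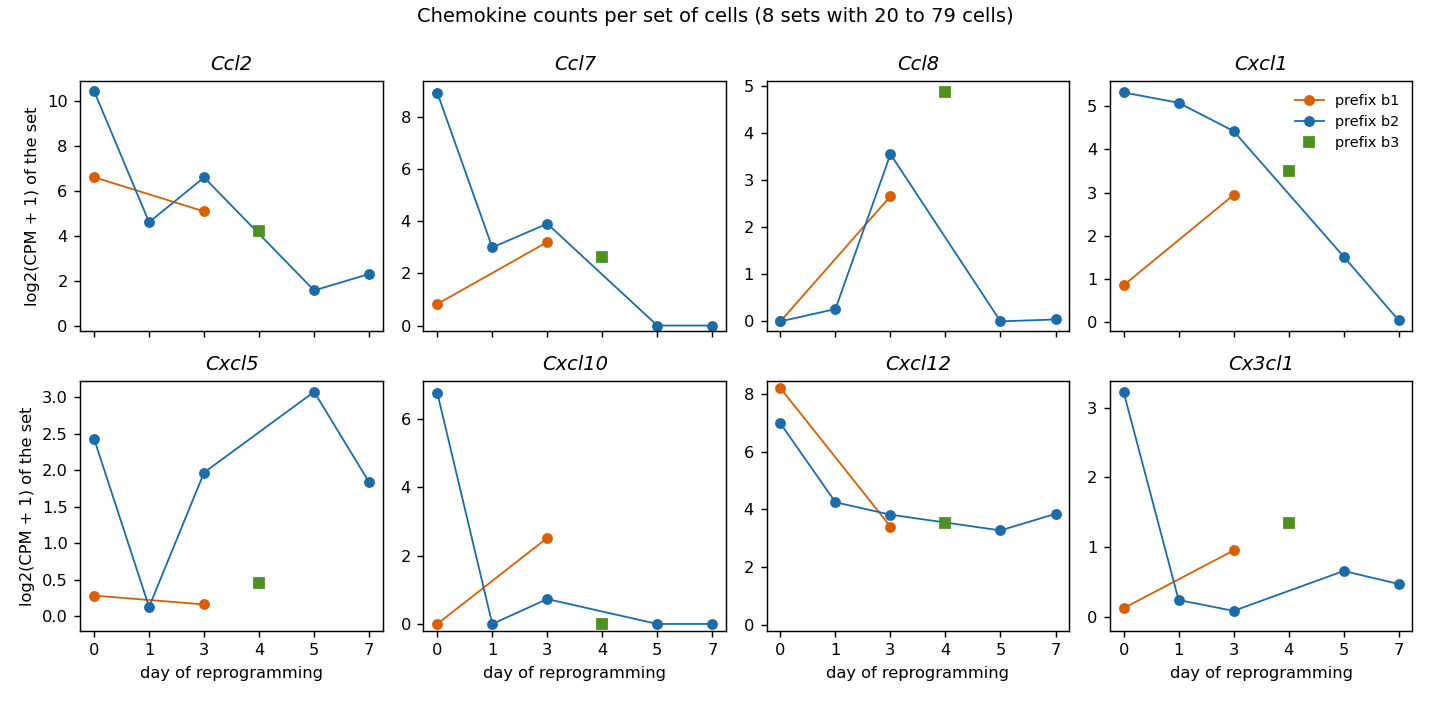
Level of each chemokine gene, as log2(CPM + 1) of the summed counts of a set (vertical axis, own scale per gene), by day (horizontal axis); lines join sets of 1 prefix, and 8 sets of 20 to 79 cells are shown. Ccl2 and Cxcl12 lie lower at day 3 than at day 0 in both b1 and b2, whereas Ccl7, Cxcl1, Cxcl10 and Cx3cl1 lie higher at day 3 in b1 and lower in b2.

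Ccl2, the main monocyte attractant of fibroblasts, had the highest mean length-corrected level of the 8 at day 0. It averaged 198 and 2586 TPM (transcript abundance relative to all transcripts of a cell) in the b1 and b2 cells. While Cxcl12 had medians of 13.7 (b1) and 0 (b2) TPM over these cells, Ccl2 had medians of 0.445 (b1) and 153.8 (b2) TPM. Its summed counts gave 97.6 (b1) and 1401 (b2) CPM at day 0, 23.7 CPM at day 1, 33.4 (b1) and 96.8 (b2) CPM at day 3, 17.7 CPM at day 4, 2.01 CPM at day 5 and 3.999 CPM at day 7. Every later set lay below both day 0 sets, although b2 at day 3 came close to b1 at day 0. The log2 changes against day 0 were -4.98 ± 0.64 (SE, adjusted p = 2.76e-11) at day 1, -3.53 ± 0.44 (7.52e-13) at day 3, -5.41 ± 0.66 (1.70e-13) at day 4, -8.54 ± 0.77 (1.86e-25) at day 5 and -7.55 ± 0.73 (6.01e-22) at day 7. In the order of days, day 0 was above day 3, while days 3 and 1, days 1 and 4, and days 7 and 5 did not differ beyond the spread. Day 4 lay above day 7 (log2 change -2.14), but each has 1 set in the fit. As these are b3 and b2, day and prefix cannot be told apart there. Within b1 the level was 2.93-fold lower at day 3 than at day 0, and within b2 14.5-fold lower. Without the b2 set of day 0 the early falls shrank to -2.04 (0.166) at day 1 and -0.59 (0.83) at day 3, and the later ones remained at -2.47 (0.0357), -5.60 (2.18e-08) and -4.61 (2.47e-06) for days 4, 5 and 7. With all 10 sums the changes at days 1, 3 and 4 were not called (adjusted p = 1, 0.325 and 0.289), and those at days 5 and 7 were -7.60 (0.00246) and -8.22 (0.000834).

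Cells with Ccl2 were scarcest at days 5 and 7. A TPM of 1 or more was reached in 37.9% of day 1 cells, in 34.4% (b1) and 37.9% (b2) of day 3 cells, in 37.3% of day 4 cells, in 6.33% of day 5 cells and in 4.62% of day 7 cells, against 45% (b1) and 74.1% (b2) of day 0 cells. Exact 95% intervals run from 2.09 to 14.2% at day 5 and from 0.962 to 12.9% at day 7, against 23.1 to 68.5% (b1) and 60.4 to 85.04% (b2) at day 0. The b1 interval of day 3, 22.7 to 47.7%, overlaps that of b1 at day 0. All of these intervals cover the sampling of cells within a set and not the spread between sets. Days 5 and 7 have 1 set each in the fit. Among the cells with Ccl2, the median was 15.7 TPM at day 1, 7.23 and 22.96 TPM at day 3, 28.8 TPM at day 4, 129.9 TPM at day 5 (5 cells) and 3.61 TPM at day 7 (3 cells), against 222 and 298 TPM at day 0. At day 7, 99.4% of the counts came from 1 cell with 464 TPM, which was at rank 2 of 65 cells by its fibroblast markers and had Col1a1 at 156 TPM. At day 3 of b2, 94.7% came from 1 cell with 7003 TPM, which had the lowest fibroblast marker score of its 58 cells and Pou5f1 at 74.2 TPM. The other sets had 35.1 to 67.8% of their Ccl2 counts in the highest cell.

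Ccl7, a monocyte attractant encoded near Ccl2 and Ccl8 on chromosome 11, was abundant in b2 at day 0 alone. It gave 0.772 (b1) and 487 (b2) CPM at day 0, 6.99 CPM at day 1, 8.21 (b1) and 13.98 (b2) CPM at day 3, 5.11 CPM at day 4 and 0 in the b2 sets of days 5 and 7. Every later set of the fit with Ccl7 thus lay between the 2 day 0 sets. The log2 changes were -5.13 ± 0.81 (adjusted p = 2.91e-07) at day 1, -4.46 ± 0.57 (5.15e-12) at day 3 and -5.58 ± 0.83 (7.33e-09) at day 4. With no count in b2 at days 5 and 7, the level there was at least 22170-fold and 24880-fold lower than over both day 0 sets (3.86e-30 and 1.12e-30), but at least 48.1-fold and 53.95-fold lower than in the b1 set. Of the b1 cells outside the fit, 1 of 5 at day 5 had Ccl7 (510 TPM, 884 counts) and 1 of 2 at day 7 (110 TPM, 57 counts). With all 10 sums Ccl7 was at -2.44 (0.793) at day 5 and -4.45 (0.441) at day 7, and it was not called on any day. In b1 the level at day 3 was 10.6-fold higher than at day 0, and in b2 it was 34.8-fold lower. That b1 rise was from 43 counts in 1 of 20 cells to 1736 counts, of which 1 of 61 cells held 90.15%. Without the b2 set of day 0 the changes turned to 3.17 (0.674), 3.84 (0.393) and 2.73 (0.728) at days 1, 3 and 4, none of them called. DESeq2 did not call these 3 days either (0.596, 0.413 and 0.447), nor did edgeR without the highest cell of each set (0.356, 0.0807 and 0.19).

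At day 0 the Ccl7 of b2 sat in few cells. It was detected in 15.5% of day 1 cells, 8.20% (b1) and 24.1% (b2) of day 3 cells and 23.7% of day 4 cells, against 5% (b1) and 33.3% (b2) of day 0 cells. A single b2 cell of day 0 with 34550 TPM of Ccl7 and 56980 TPM of Ccl2 held 63.3% of the Ccl7 counts and 37.1% of the Ccl2 counts. That cell had 7392 genes and Col1a1 at 36.4 TPM, and no leukocyte marker above 0. The 24 b2 cells with fewer than 7500 genes held 44.4% of all counts but 86.6% of the Ccl2 counts and 95.9% of the Ccl7 counts. Without cells of so few genes in any set, Ccl2 stayed called on all 5 days, at -3.38 (0.000557) and -1.66 (0.0324) for days 1 and 3, whereas Ccl7 was at -2.13 (1), -0.63 (0.959) and -1.86 (0.884) for days 1, 3 and 4. At days 5 and 7 Ccl7 was called without them as well, at adjusted p = 0.000184 and 0.000136. No Ccl7-positive cell was found among 79 day 5 and 65 day 7 cells of b2, which allows shares of up to 3.80% and 4.62%.

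Ccl2 and Ccl7 tended to be in the same cells. Of the 18 Ccl7-positive b2 cells at day 0, 16 also had Ccl2, which was present in 40 of the 54 cells, and the Spearman correlation over cells was 0.54. At day 4 it was 0.37 over 59 cells, with 9 of 14 Ccl7-positive cells also positive for Ccl2. At day 3 of b2 it was 0.33 over 58 cells, with 8 of 14. The other 26 pairs of chemokine genes that could be set side by side within a set lay between -0.23 and 0.24. Cells of a set share preparation and sequencing, so these are descriptions. RSEM had not split reads of Ccl2, Ccl7 or Ccl8, since their estimated counts were whole (within 0.005) in all 169, 70 and 32 cells with counts.

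**Figure D2:**
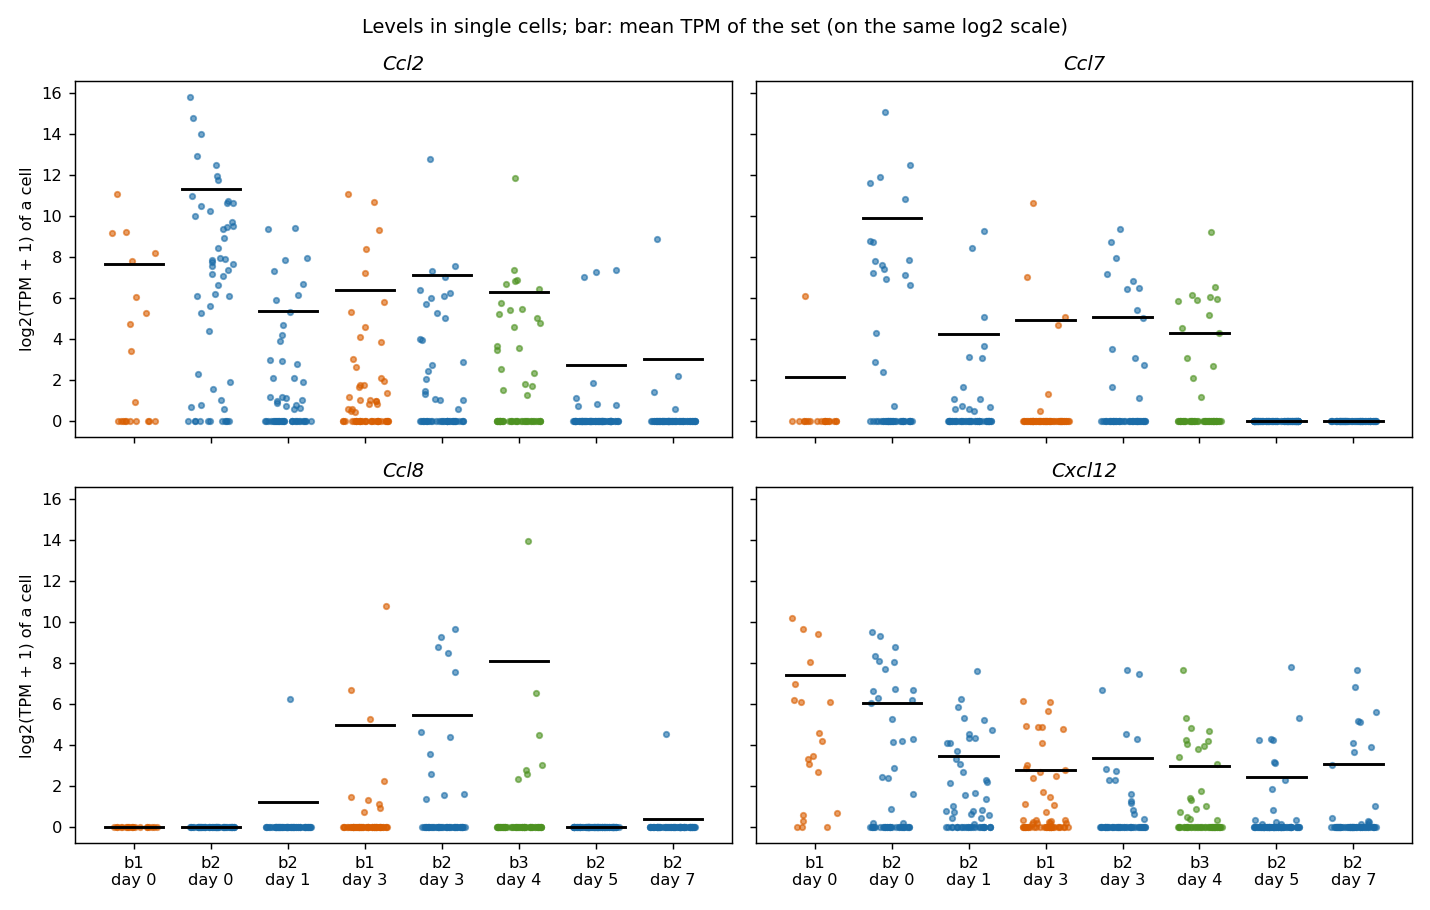
Level of Ccl2, Ccl7, Ccl8 and Cxcl12 in each cell, as log2(TPM + 1) (vertical axis), by set (horizontal axis; orange b1, blue b2, green b3), with a bar at the mean TPM of the set. The 8 sets of the fit are shown, so days 5 and 7 are b2 cells. In these Ccl7 has no cell above 0 at days 5 and 7, Ccl8 none at days 0 and 5, and the bar of Ccl8 at day 4 is carried by 1 cell of 15970 TPM.

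Ccl8 moved the other way, and in the sets of the fit it was highest at days 3 and 4. It had no count in the 20 and 54 cells of day 0, which allows shares of positive cells of up to 15.0% and 5.56%. It then gave 0.199 CPM at day 1, 5.33 (b1) and 10.8 (b2) CPM at day 3, 28.3 CPM at day 4, 0 at day 5 (b2) and 0.0286 CPM at day 7 (b2). Both day 3 sets and the day 4 set lay above the other sets of the fit. The level was at least 511-fold higher at day 3 (adjusted p = 3.85e-05) and at least 1948-fold higher at day 4 (5.53e-06) than over the day 0 sets. Within prefixes it was at least 99.0-fold (b1) and at least 543-fold (b2) higher at day 3 than at day 0. Days 1 and 7, with 24 and 6 counts each in a single cell, were not called (adjusted p = 0.127 and 0.339). With all 10 sums days 3 and 4 were not called (0.169 and 0.107), and day 5 was called higher (0.0158).

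Ccl8 was present in 11.5% (b1) and 20.7% (b2) of day 3 cells and 11.9% of day 4 cells. The day 4 level came from 1 cell: it held 98.7% of the counts, at 15970 TPM, with 3661 TPM of Ccl2 and 587 TPM of Ccl7, in a cell of 0.376 M counts. With the highest cell of every set left out, the change at day 4 was 8.73 on the log2 scale (adjusted p = 0.193) and that at day 3 was 12 (0.0401). In b1 at day 3 the highest cell held 91.6% of the counts, at 1752 TPM, and was also the highest for Ccl7 (1597 TPM). It was at rank 3 of 61 cells by fibroblast markers. The b2 set of day 3 was broader, its highest cell holding 36.9%; that cell, at 631 TPM, was at rank 1 of 58 by fibroblast markers. The summed leukocyte markers were 5.61 (b1) and 2.80 (b2) CPM at day 3 and 4.51 CPM at day 4, against 14.9 (b1) and 14.4 (b2) CPM at day 0. The macrophage marker Adgre1 was at 0 in all 8 sets. These sums cover all cells of a set. In the highest Ccl8 cell, 2 of the 12 leukocyte markers were above 0 in b1 at day 3, 0 in b2 at day 3 and 1 at day 4. That day 4 cell was at rank 10 of 59 by fibroblast markers. Among the 5 b1 cells of day 5, which were not in the fit, 2 had Ccl8, and 1 of them had 3595 TPM of Ccl8, 510 TPM of Ccl7, 380 TPM of Cxcl12 and 32.2 TPM of Ccl2, with Col1a1 at 184 TPM and Pou5f1 at 0.

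Cxcl1, the neutrophil attractant with NF-kB matches in the promoter printed above, was at 84.3% and 52.5% of its b2 day 0 level at days 1 and 3 of that prefix and nearly gone at day 7. It gave 0.808 (b1) and 38.95 (b2) CPM at day 0, 32.8 CPM at day 1, 6.71 (b1) and 20.5 (b2) CPM at day 3, 10.2 CPM at day 4, 1.86 CPM at day 5 and 0.0286 CPM at day 7. Day 7 was the only set below both day 0 sets, and the log2 change of -9.40 ± 1.87 (adjusted p = 3.25e-05) was the only one called. Without the b2 set of day 0 it was -4.78 (0.0396) at day 7, and the change at day 1 was 5.34 (0.0391) in place of 0.72 (1). No pair of neighbouring days in the order of levels differed beyond the spread. Within b1, day 3 was 8.31-fold higher than day 0, from 1420 counts against 45, and within b2 1.90-fold lower. Cells with Cxcl1 made up 32.8% at day 1, 16.4% (b1) and 18.97% (b2) at day 3, 15.3% at day 4, 2.53% at day 5 and 3.08% at day 7, against 10.0% (b1) and 18.5% (b2) at day 0.

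Cxcl5, another ligand of Cxcr2, was low throughout and not called on any day. It gave 0.216 (b1) and 4.38 (b2) CPM at day 0, 0.0913 CPM at day 1, 0.118 (b1) and 2.91 (b2) CPM at day 3, 0.374 CPM at day 4, 7.40 CPM at day 5 and 2.56 CPM at day 7. The day 5 value was above both day 0 sets, with a log2 change of 1.68 ± 2.21 (adjusted p = 0.895). At day 5 its cells made up 10.1% (8 of 79), against 15.0% (b1) and 1.85% (b2) at day 0, and 1 day 5 cell with 310 TPM also held the highest Cxcl1 of that day, 177 TPM. At day 0 of b2, 1 cell held 99.6% of the counts. RSEM had assigned non-whole counts to Cxcl5 in 29 of the 55 cells with counts, so part of its reads were shared with another gene or transcript and low values are uncertain.

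Cxcl10, the interferon-induced chemokine, was called lower on every later day, yet the call rests on few cells of 1 set. It gave 0 (b1) and 108 (b2) CPM at day 0, 0 at day 1, 4.74 (b1) and 0.658 (b2) CPM at day 3, and 0 at days 4, 5 and 7. The log2 change at day 3 was -4.33 ± 1.05 (adjusted p = 0.00252). For days 1, 4, 5 and 7 the level was at least 3182-, 1768-, 4932- and 5536-fold lower than over both day 0 sets (adjusted p = 6.38e-07, 7.22e-07, 3.89e-08 and 2.10e-08). The b1 set of day 0 had no count either, so no fall from that set can be given, and within b1 the level at day 3 was at least 88-fold higher than at day 0. In b2 of day 0, 5 of 54 cells had Cxcl10 and 1 cell with 6699 TPM held 91.4% of the counts. That cell had 6977 genes, 28650 TPM of Ccl2, 1816 TPM of Ccl7 and 349 TPM of Cxcl1. Without the highest cell of each set no Cxcl10 change was called (adjusted p from 0.108 to 0.391), nor without cells of few genes (0.0605 to 0.909), nor without the b2 set of day 0. At day 3 the call was also lost in DESeq2 (0.717), without TMM factors (0.0661) and without the b2 set of day 3 (0.46). In b1 at day 3, 3 of 61 cells had Cxcl10 and 1 cell of 447 TPM held 95.9% of the counts.

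Cxcl12, the constitutive stromal ligand of Cxcr4, was called lower on all 5 days, and at day 3 it was lower in both prefixes. It gave 292 (b1) and 125 (b2) CPM at day 0, 18.01 CPM at day 1, 9.61 (b1) and 13.1 (b2) CPM at day 3, 10.6 CPM at day 4, 8.67 CPM at day 5 and 13.4 CPM at day 7. Every later set of the fit lay below both day 0 sets. The log2 changes were -3.53 ± 0.75 (adjusted p = 0.000675) at day 1, -4.20 ± 0.58 (1.71e-10) at day 3, -4.30 ± 0.79 (8.16e-06) at day 4, -4.59 ± 0.80 (1.20e-06) at day 5 and -3.96 ± 0.77 (1.94e-05) at day 7. Days 1 to 7 did not differ from each other beyond the spread in the order of levels, so the fall was measured between day 0 and day 1 and no further fall was detectable. Within b1 day 3 was 30.4-fold lower than day 0, and within b2 9.54-fold lower. Without the b1 set of day 0 the change at day 1 was -2.80 and no longer called (0.086), and the other 4 days stayed called (-3.22 to -3.85). With all 10 sums no day was called (adjusted p = 1, 0.394, 0.765, 0.905 and 0.0692), and the change at day 5 was -0.86, where 1 of the 5 b1 cells had 380 TPM.

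The share of cells with Cxcl12 changed less than its level. It was 37.9% at day 1, 29.5% (b1) and 20.7% (b2) at day 3, 25.4% at day 4, 11.4% at day 5 and 15.4% at day 7, against 70% (b1) and 38.9% (b2) at day 0. Among cells with Cxcl12 the median was 14.1 TPM at day 1, 6.77 and 5.84 TPM at day 3, 14.6 TPM at day 4, 18.1 TPM at day 5 and 25.2 TPM at day 7, against 67.6 (b1) and 77.4 (b2) TPM at day 0. In b2 at day 0 the highest cell held 19.8% of the Cxcl12 counts, a lower share than for any other of the 8 genes with counts there. Yet Cxcl12 was detected in 21 of these 54 cells, against 40 for Ccl2. In b1 at day 0 the highest cell held 45.7% of the Cxcl12 counts, against 44.7% for Ccl2. In b2 the 24 cells with few genes held 36.5% of the Cxcl12 counts, against 44.4% of all counts. In b1, 2 such cells held 64.98%.

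Cx3cl1, the membrane-tethered chemokine, gave 0.0898 (b1) and 8.36 (b2) CPM at day 0, 0.183 CPM at day 1, 0.936 (b1) and 0.0612 (b2) CPM at day 3, 1.55 CPM at day 4, 0.579 CPM at day 5 and 0.387 CPM at day 7. The b2 set of day 0 stood alone, with 12 of 54 cells positive (22.2%), against 1 to 5 cells in any later set. The changes were not called on any day (adjusted p from 0.676 to 1), with standard errors of 2.29 to 3.34 on the log2 scale. Within b1 day 3 was 10.4-fold higher than day 0, from 198 counts against 5, and within b2 137-fold lower.

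**Figure D3:**
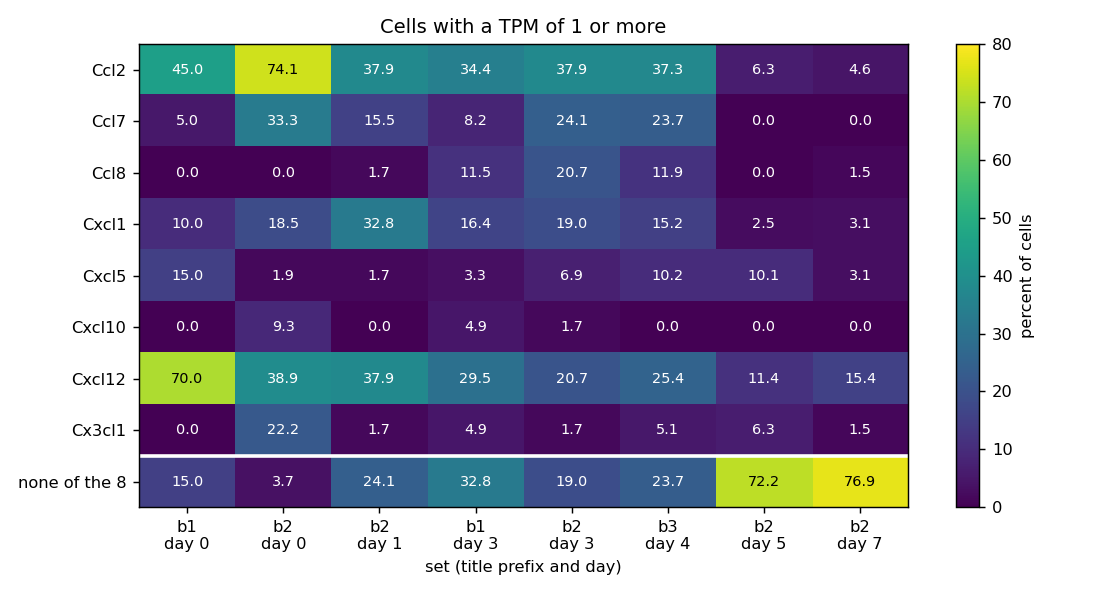
Percent of the cells of each set with a TPM of 1 or more of each chemokine gene, and in the lowest row with none of the 8; columns are the 8 sets in day order, with the percent printed in each field. Cells with none of the 8 make up 72.2% at day 5 and 76.9% at day 7 (both b2), against 15.0% and 3.7% at day 0.

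Most day 0 fibroblasts had at least 1 of the 8 chemokine genes and most b2 cells of days 5 and 7 had none. Cells with none made up 24.1% at day 1, 32.8% (b1) and 18.97% (b2) at day 3, 23.7% at day 4, 72.2% at day 5 and 76.9% at day 7, against 15.0% (b1) and 3.70% (b2) at day 0. The share with 3 or more was 13.8% at day 1, 9.84% (b1) and 12.1% (b2) at day 3, 13.6% at day 4, 2.53% at day 5 and 1.54% at day 7, against 10.0% (b1) and 24.1% (b2) at day 0. No cell had more than 5. Over the cells of a set, correlations of a chemokine gene with the fibroblast marker score lay between -0.20 and 0.38. Cxcl12 reached 0.38 in b1 at day 3, 0.35 at day 7, 0.34 in b1 at day 0 and 0.31 in b2 at day 3, and 0.04 or less in b2 at day 0, at day 1 and at day 4.

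**Figure D4:**
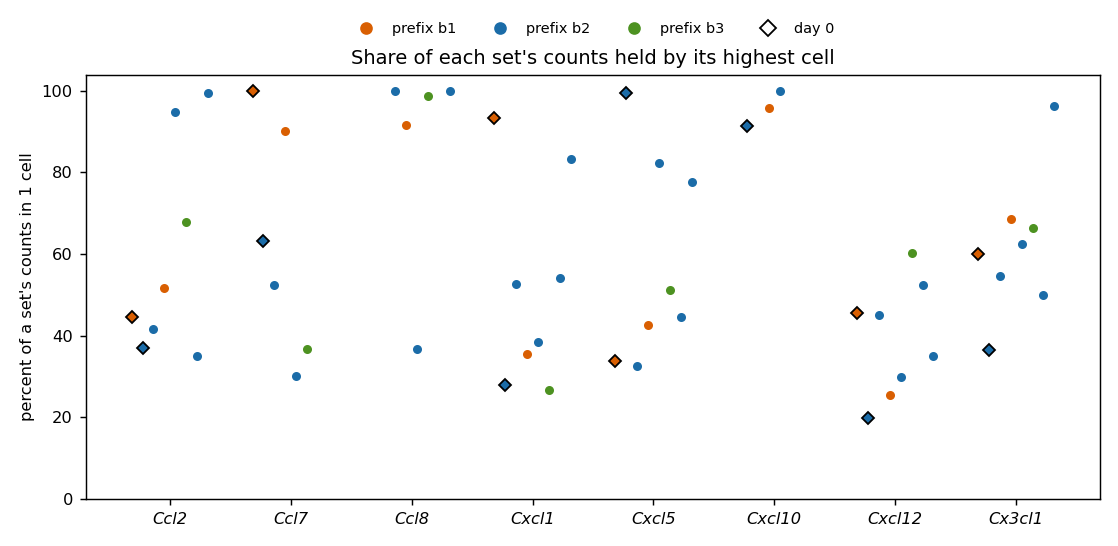
Percent of the counts of a set held by its highest cell (vertical axis) for each chemokine gene (horizontal axis), 1 point per set with 3 or more counts, in day order within a gene; diamonds mark day 0. For Cxcl10 all 3 points are above 90%, whereas the points of Cxcl12 lie between 19.8 and 60.2%.

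Of 10 fibroblast markers, 2, 3, 4, 7 and 8 were called lower at days 1, 3, 4, 5 and 7 and none higher, and the part of such shifts in the chemokine changes was not tested. Together they summed to 1040 CPM at day 1, 553 (b1) and 769 (b2) CPM at day 3, 388 CPM at day 4, 177 CPM at day 5 and 186 CPM at day 7, against 3429 (b1) and 3608 (b2) CPM at day 0. Col1a1 and Col1a2 make up most of the day 0 sums, and all 10 had counts in every set. Lum, a matrix proteoglycan, did not pass at day 3, with 2.37 (b1) and 52.8 (b2) CPM, against 3.47 (b1) and 0.01985 (b2) CPM at day 0 (log2 change 3.99 ± 1.27, adjusted p = 0.0529). Pluripotency markers ran the other way, with 5 of 10 called higher at day 1 and 10 of 10 on each later day. They summed to 105 CPM at day 1 and 4445 CPM at day 7, against 0.287 (b1) and 0.45 (b2) CPM at day 0, when Zfp42, Dppa4, Dppa3 and Lin28a were at 0. Endothelial markers summed to 24.98 to 86.96 CPM from day 1 on, against 20.03 (b1) and 3.26 (b2) CPM at day 0, and 2 of 8 were called higher on each day, among them Tek, an endothelial receptor without counts at day 0 (adjusted p = 0.000458 at day 1). Pecam1 gave 55.1 CPM of the day 7 sum, while Cdh5 was at 2.80, Cldn5 at 0.935 and Emcn at 0 CPM. Epithelial markers summed to 110 to 714 CPM from day 1 on, against 233 and 189 CPM at day 0; 2 of 8 were called higher at days 3, 4 and 5 and 4 at day 7, and 1 was lower at days 3, 4 and 5. Cycling genes summed to 2425 CPM at day 7, against 995 and 1291 CPM at day 0, with 2 of 8 called higher. Of all tested genes 0.25%, 1.04%, 0.965%, 2.18% and 3.05% were called lower at days 1, 3, 4, 5 and 7. Those called higher made up 0.934%, 2.1%, 2.07%, 2.56% and 3.55%.

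Of 14 listed chemokine receptor genes 11 were tested. Of these, 1 was called higher at day 4, 1 higher and 1 lower at day 5, and 1 lower at day 7. None was called at days 1 and 3. Among all tested genes 3.03%, 4.73% and 6.6% were called in either direction at days 4, 5 and 7. Counts this small do not show whether receptors changed more or less often than other genes. Ccr1, Cxcr3, Cxcr4, Cxcr5, Ackr1, Ackr2 and Cx3cr1 averaged 0.731 CPM or less over the sets, so changes in them could be missed. Cxcr2, which binds Cxcl1 and Cxcl5, was at 90.7 (b1) and 53.3 (b2) CPM at day 0, 160 CPM at day 1, 84.5 (b1) and 92.5 (b2) CPM at day 3, 307 CPM at day 4, 240 CPM at day 5 and 63.9 CPM at day 7. Its log2 change was 2.09 ± 0.50 at day 4 (adjusted p = 0.00183) and 1.74 ± 0.50 at day 5 (0.0141), and at day 7 -0.17 ± 0.52 (0.968). Ccr7, a lymphocyte homing receptor, was at 0.0143 CPM at day 7, against 4.80 (b1) and 26.9 (b2) CPM at day 0 (log2 change -10.0 ± 2.37, adjusted p = 0.000913). Ackr3, the scavenger receptor of Cxcl12, did not pass at day 7, with 27.7 CPM against 27.5 (b1) and 13.9 (b2) CPM at day 0. Cxcr4 stayed at or under 1.32 CPM in all sets, and Ccr2 was too low to be tested; these 2 are named as the receptors of Cxcl12 and Ccl2.

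Of all tested genes 0.25%, 1.04%, 0.965%, 2.18% and 3.05% were called lower at days 1, 3, 4, 5 and 7. Among 23 genes of the NF-kB pathway and its targets, 22 were tested and none passed at day 1. Of these, 2 were lower at days 3 and 4, and 4 were lower at days 5 and 7. The median log2 change of the list was between -0.61 and -0.03. At day 7 the 4 were Ptgs2, the inducible prostaglandin synthase (0.134 CPM, against 251 and 98.7 CPM at day 0), Csf1, a macrophage growth factor (4.73 CPM, against 118 and 265 CPM), Vcam1, an adhesion molecule (0.673 CPM, against 24.8 and 146 CPM), and Nfkb2, a subunit of the factor itself (8.95 CPM, against 55.2 and 63.3 CPM). Their adjusted p values were 4.22e-19, 1.64e-08, 4.36e-08 and 0.0464. Nfkbia, the inhibitor of NF-kB, did not pass (87.1 CPM, against 65.2 and 118 CPM), nor did the superoxide dismutase gene Sod2 (406 CPM, against 220 and 147 CPM). Of 15 receptors and adaptors that act upstream, none passed at day 1, 1 was lower at days 3 and 4, 4 at day 5 and 5 at day 7. Il1r1, the interleukin 1 receptor, was at 12.8 CPM at day 7, against 218 (b1) and 128 (b2) CPM at day 0 (log2 change -3.76 ± 0.76, adjusted p = 4.25e-05). Pdgfrb, Tnfrsf1a and Tlr3 were also lower at day 7 (1.80e-05, 0.000112 and 0.00375). Pdgfrb was counted among the fibroblast markers as well.

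Among 15 interferon response genes none passed at days 1 and 3, 1 was lower at days 4 and 5 and 2 at day 7. Of all tested genes 1.04%, 0.965%, 2.18% and 3.05% were called lower at days 3, 4, 5 and 7. At days 4 and 7, 2.07% and 3.55% were called higher. Ifit1 stood at 0.105 CPM at day 7, against 0.018 (b1) and 66.7 (b2) CPM at day 0, the same split between the day 0 sets as Cxcl10, and at 39.7 (b1) and 10.3 (b2) CPM at day 3. Ifit3 had no count at day 7, against 7.04 (b1) and 29.2 (b2) CPM at day 0 (adjusted p = 0.000117), while Irf1 did not pass at day 7 (adjusted p = 1). Of 29 other chemokine genes 16 were tested, and 1 was lower at days 3, 4, 5 and 7, this being Ccl5, with 31.7 CPM in b2 and 0 in b1 at day 0 and 0 at day 7 (0.00378). Ccl12, named after its values were seen, was higher at day 4 (adjusted p = 0.0374), at 5.78 CPM, against 0 in both day 0 sets. Ccl25 and Cxcl16 did not pass at day 7 (0.907 and 1). Of 6 proteases that shed or cut chemokines, Mmp2 and Mmp9 were lower and Dpp4 was higher at day 7. Dpp4, which trims Cxcl10 and Cxcl12, was at 23.3 CPM at day 7, against 0 (b1) and 0.734 (b2) CPM at day 0 (log2 change 5.95 ± 1.51, adjusted p = 0.00277). Adam10 and Adam17, which shed Cx3cl1, did not pass at day 7 (0.144 and 1).

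The genes whose pattern over the 8 sets was most like that of each chemokine gene were taken from 10210 genes. The measure was the Pearson correlation of log2(CPM + 1), which compares the pattern and not the size of the changes. For Ccl2 they were Haghl (0.985), Arid1b (0.968) and Lats2 (0.966). For Ccl7 they were Akirin1 (0.979), Ugp2 (0.96) and Ebpl (0.959), and for Ccl8 Th (0.996), Egln3 (0.965) and Pmaip1 (0.957). For Cxcl1 they were Prr5 (0.971), Ids (0.968) and Fgf1 (0.962), and for Cxcl10 Camsap2 (0.977), Fmnl3 (0.962) and Tmbim6 (0.957). For Cxcl12 they were Nit1 (0.986), Lasp1 (0.983) and Cd47 (0.98). Cxcl5 and Cx3cl1 were under 10 CPM in all sets and were left out. Akirin1 ranged from 37.69 to 71.45 CPM and Camsap2 from 40.14 to 71.62 CPM, against 0 to 487 CPM for Ccl7 and 0 to 108 CPM for Cxcl10. For Ccl7 and Cxcl10 the highest point was b2 at day 0, where 1 cell held 63.3% and 91.4% of the counts. With 8 points that share prefixes and days, these correlations are descriptions.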

How the data were processed

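Each of the 461 samples is 1 mouse cell. The deposited expected counts are RSEM 1.2.22 estimates of reads per gene, and the deposited TPM are abundances that the authors scaled per cell; bcl2fastq and RSEM are named per the submitters' processing notes. For aligner and genome build nothing is stated: not given in the sources used here. Over all pairs of gene and cell, those without counts included, 9.11% of the expected counts were not whole. The share given for Cxcl5 covers only cells with counts. No molecular identifiers are described, so intervals and floors cover counting error only. No cell was removed, and no doublet caller was run.

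The 8 genes and the gene lists were chosen with earlier results of these data known. For each set the expected counts of its cells were added up, then rounded. A single model in edgeR 4.0.16 covered the 8 sets of at least 10 cells (TMM factors, filterByExpr by day, quasi-likelihood F test, two-sided, Benjamini-Hochberg over 22378 genes, threshold 0.05), with day as the only term. Only days 0 and 3 have another set; residual degrees of freedom were thus 2, and edgeR's prior degrees of freedom infinite. A gene's p therefore rests on a spread shared over genes, and a gene that differs widely between sets of a day can still have a small p. P-values say nothing of animals or repeated derivations, which may be few. CPM are TMM-scaled counts per mega-count and are compared within a gene; genes are compared by TPM. Fold changes are log2 with SE = |log2 fold change| / square root of F. A bound (at least N-fold) takes 3 counts for the group without any. Detection is a TPM of 1 or more, with exact Clopper-Pearson 95% intervals. Per list, up to 4 genes that passed (smallest adjusted p) and up to 2 that did not (highest CPM) were named for days 1 and 7. The test was checked on data simulated with the spread shared over genes. That check does not cover genes that differ more widely between sets of a day.

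Alternatives were DESeq2, library sizes without TMM, no filter, all 10 sums, a block on prefix, each set of days 0 and 3 left out, limma on log2(TPM + 1), the highest cell of each set left out, cells with fewer than 7500 genes left out, and cells thinned to 300000 counts.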

Additional observations from a re-analysis of the deposited data

Results flagged for a closer look

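In b1 at day 5 there were 5 cells, outside the fit, and 1 of them stood far from the others for 4 chemokine genes: it had 3595 TPM of Ccl8, 509.7 TPM of Ccl7, 379.8 TPM of Cxcl12 and 32.18 TPM of Ccl2. A different gap was flagged for Cxcl5, where 1 cell had 0.93 TPM and the others 0. The nominal rate of chance flags is about 1 in 20 groups. That rate does not hold for a gene at 0 in the other 4 cells, where any single positive cell is flagged. Averaged over these 5 cells, Ccl8 was at 719.6 TPM, against 0 in both day 0 sets.

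Day 3 went opposite ways in the 2 prefixes for 4 genes, which was not tested, since each prefix has 1 set per day. In b1, Ccl7 was 10.63-fold, Cxcl1 8.305-fold, Cx3cl1 10.42-fold and Cxcl10 at least 88-fold higher at day 3 than at day 0. These rises start from 43, 45, 5 and 0 counts over the 20 b1 cells of day 0, in the same order of genes. At day 3 of b1 the highest of 61 cells held 90.15%, 35.56%, 68.69% and 95.91% of their counts. In b2 each of the 4 was lower at day 3 than at day 0, by 34.8-fold, 1.90-fold, 137-fold and 165-fold for Ccl7, Cxcl1, Cx3cl1 and Cxcl10. Ccl5 and Ifit1 were split between the day 0 sets in the same direction, at 0 and 0.018 CPM in b1 and 31.7 and 66.7 CPM in b2.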

How the results depend on the processing

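The falls of Ccl2 at days 5 and 7 stayed called under every alternative but limma, and those of Cxcl12 at days 3, 4, 5 and 7 under every one but limma and all 10 sums, where Cxcl12 at day 5 was -0.86. The number of the 8 genes called at days 1, 3, 4, 5 and 7 was 4, 5, 5, 4 and 5. With all 10 sums it was 0, 0, 0, 2 and 1 (at an unadjusted p under 0.05, 4, 3 and 4 genes on the first 3 days), and with limma on TPM 0 on every day (1, 2, 2, 2 and 2 unadjusted). DESeq2 called 3 at day 3. Without the highest cell of each set 2, 3 and 2 were called at days 1, 3 and 4, and without cells of few genes 2, 3 and 3. Leaving out 1 set of day 0 or 3 gave 2 to 4 genes at day 1, 2 to 5 at day 3, 3 to 5 at day 4, 3 to 5 at day 5 and 4 to 5 at day 7.

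Over all genes, 265, 703, 679, 1059 and 1477 were called on the 5 days. The counts were 716, 1559, 1233, 2149 and 2881 in DESeq2, 1, 37, 33, 158 and 352 with all 10 sums, and 0, 0, 0, 0 and 582 in limma (1316, 2051, 2078 and 2708 unadjusted on the 4 days without calls). Leaving out 1 set gave 145 to 440, 261 to 793, 421 to 846, 691 to 1271 and 918 to 1678.

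With the prefix as a replicate block 0, 2, 2, 3 and 4 of the 8 genes were called (5 unadjusted at day 1), and 6, 191, 174, 290 and 432 genes in all; b1 and b2 deviated together at days 0 and 3 with r = 0.081 over genes, and the labels do not say that a prefix pairs sets. Under the block Cxcl1 turned to 1.03 and 2.32 at days 3 and 4, and Cxcl5 to 0.86 and -0.84 at days 4 and 7, none called.

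Signs turned only for values that were not called under the alternative, and the cause was not tested. Leaving out 1 set of day 0 or 3 gave ranges of -6.12 to 3.17, -5.46 to 3.84 and -6.57 to 2.73 for Ccl7 at days 1, 3 and 4, and -6.36 to 11.57 for Cxcl10 at day 3. For Cxcl1 they were -0.25 to 5.34, -1.57 to 4.07, -1.93 to 3.66 and -4.38 to 1.2 at days 1, 3, 4 and 5. For Cxcl5 they were -4.27 to 2.80, -3.55 to 0.79 and -0.77 to 3.56 at days 3, 4 and 7. For Cx3cl1 they were -5.51 to 1.02, -6.09 to 2.46, -2.43 to 4.10, -3.85 to 2.67 and -4.43 to 2.09 on the 5 days. Cxcl5 at day 7 was -0.71 with all 10 sums and -0.59 with thinned cells; at days 3 and 4 it was 1.87 and 1.19 without the highest cells and 3.82 and 1.67 without cells of few genes. Cxcl1 was 0.73 and 0.80 at days 3 and 4 in limma. The share of cells with a gene moved beyond its interval for 16 pairs of gene and set at a TPM of 10 and stayed for 48; at 300000 counts per cell it moved for 3 and stayed for 61.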
